A study of Mus musculus with 7 samples.

Results

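Among 7 RNA libraries of mouse alveolar macrophages, 3 held far more haemoglobin RNA than the other 4, and the same 3 libraries held far more RNA of inflammatory and immediate-early genes. Haemoglobin transcripts are typical of red blood cells, while alveolar macrophages are the resident phagocytes of the airspaces. The 3 libraries were chosen by their measured level and not by a label: the counts per 1e6 counts (CPM, of the raw library total) of Hba-a1, Hba-a2, Hbb-b1 and Hbb-bs were summed, and libraries over 10 CPM were called high. Hbb-b2, the fifth gene of the rule, was not analysed here. They are Suz12 cKO replicates 1 and 2 and wild type replicate 2, 3 of 7 libraries in all. Suz12 cKO replicate 3 and wild type replicates 1, 3 and 4 were low.

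The series compared alveolar macrophages of chimeric mice on the C57BL/6 background, in 4 wild type and 3 Suz12 cKO libraries that the design text calls biological replicates. Each C57BL/6-Ly5.1 recipient was lethally irradiated and received 90% test marrow carrying Ly5.2, either wild type or Suz12 conditional knockout (cKO), with 10% wild type Ly5.1 marrow, so that all groups share irradiation and the competitor. Cells were selected from lung by flow cytometry. The sources used here do not give the Cre line, the deleted exons, the age of the mice or the gate, nor whether cells of the host or the competitor were sorted out. No label gives a batch, a sort date or the way in which a lung was processed. Suz12, the targeted gene and a core subunit of the gene-silencing complex PRC2, was at 22, 23.5 and 15.1 CPM in Suz12 cKO replicates 1 to 3 and at 56, 56.5, 74.6 and 69.5 CPM in wild type replicates 1 to 4, so both haemoglobin classes hold both genotypes.

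As background, a macrophage that meets a stimulus first transcribes immediate-early genes, such as those of the FOS, JUN, EGR and NR4A families, which need no newly made protein. NF-kappa-B and MAP kinase signalling then switch on cytokine and chemokine genes, and with them the inhibitors that end the response. In resting alveolar macrophages these genes are held low while genes of lipid handling and identity stay high.

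Promoters of genes with the largest differences in level are shown first because the values below turn on these genes, and their letters can be read beside the values. The 250 bases before the annotated start were taken from RefSeq (GRCm38.p6) and searched on both strands for the cyclic AMP response element TGACGTCA, its half-site TGACG, the AP-1 site TGANTCA, the NF-kappa-B site and the serum response element. The half-site, which reads CGTCA on the other strand, is part of the full element, and capitals mark any match. Cxcl1 lies at chr5:90890995-90891244 (plus strand), Cxcl2 at chr5:90903649-90903898 (plus strand), Il6 at chr5:30012864-30013113 (plus strand) and Nr4a2 at chr2:57124004-57124253 (minus strand).
Cxcl1: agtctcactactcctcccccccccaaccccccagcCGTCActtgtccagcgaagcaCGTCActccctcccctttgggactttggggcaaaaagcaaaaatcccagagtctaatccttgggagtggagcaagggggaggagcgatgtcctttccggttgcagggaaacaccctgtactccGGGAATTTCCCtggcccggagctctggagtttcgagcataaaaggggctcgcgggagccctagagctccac
Cxcl2: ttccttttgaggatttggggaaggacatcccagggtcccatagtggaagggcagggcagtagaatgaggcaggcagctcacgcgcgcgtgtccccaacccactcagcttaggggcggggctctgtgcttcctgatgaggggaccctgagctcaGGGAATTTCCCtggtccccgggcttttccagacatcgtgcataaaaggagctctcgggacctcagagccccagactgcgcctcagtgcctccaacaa
Il6: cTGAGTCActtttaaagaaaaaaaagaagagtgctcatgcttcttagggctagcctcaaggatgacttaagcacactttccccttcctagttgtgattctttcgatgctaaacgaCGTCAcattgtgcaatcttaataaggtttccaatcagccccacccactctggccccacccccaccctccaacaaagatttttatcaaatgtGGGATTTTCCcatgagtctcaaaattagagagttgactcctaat
Nr4a2: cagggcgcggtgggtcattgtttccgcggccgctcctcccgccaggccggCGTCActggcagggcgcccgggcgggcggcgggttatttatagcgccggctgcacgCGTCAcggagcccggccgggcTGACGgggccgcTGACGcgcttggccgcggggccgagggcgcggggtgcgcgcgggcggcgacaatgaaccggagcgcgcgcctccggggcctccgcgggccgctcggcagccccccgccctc

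Counted from the start, Cxcl1 and Cxcl2, 2 chemokine genes that draw in neutrophils, each had a pair of overlapping NF-kappa-B matches, at -71 to -61 and at -97 to -87. Cxcl1 also had half-sites at -215 to -211 and -194 to -190. The Il6 window held an AP-1 match at -249 to -243, a half-site at -135 to -131 and an NF-kappa-B match at -44 to -35. Nr4a2 had 4 half-sites between -200 and -107. Ptgs2, whose difference was larger than that of each gene printed, and Tnf had no match in their windows, which are not printed. Vegfa, also not printed, had an NF-kappa-B match at -118 to -109 in a window and a half-site at -209 to -205 in another. Of the genes named for the largest differences or as markers, Egr1, Igha, Igkc, Kdm6b, Scgb1a1, Sftpc and Thbs1 were not in the promoter table. A match is a description of letters, not a shown binding site.

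Across windows, NF-kappa-B letters were found in 25.3% of the 91 windows of genes that were called higher by at least 4-fold (66 of 97 genes matched the table). They were found in 12.5% of the 367 windows of all genes called higher (272 of 355 genes matched), 9.76% of the 41 windows of genes called lower (31 of 40 genes matched), 8.79% of windows of genes tested and 7.25% of all promoters. The half-site TGACG was in 42.9% of the windows of genes at least 4-fold higher, in 33.2% of those called higher, 7.32% of those called lower, 25.7% of those tested and 17.8% of all. For AP-1 these shares were 12.1%, 7.36%, 2.44%, 4.59% and 6.75%. The full element was in 4.40%, 5.18%, 0%, 2.50% and 1.55%, and the serum response element in 1.10%, 2.45%, 0%, 1.09% and 1.47%. A gene can have several windows, and no test was made of these shares.

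Library totals were 62424518 to 65257142 counts in the high libraries and 48104653 to 79281431 in the low ones, above the 14 to 20 M (1e6) reads the design text states. Few genes had low counts: 101 to 578 genes a library had 4 to 7 counts and 490 to 954 had 16 to 31. In each library genes with 16 to 31 counts outnumbered those with 4 to 7, so a detected gene seldom had a handful of counts. A count of 0 then does not set the usual limit of a few counts, and no fold is given below against a class at 0. Of the high libraries wild type replicate 2 lay nearest to the threshold, with a haemoglobin sum of 56.6 CPM, and the sums of Suz12 cKO replicates 1 and 2 were 192 and 155 CPM. The low library nearest to it was wild type replicate 3 at 5.17 CPM, and the remaining low libraries were between 2.29 and 3.23 CPM. Each of the 4 haemoglobin genes was higher in all 3 high libraries than in any low one: Hba-a2 was at 20.2 to 79.3 CPM in the high libraries and 0.719 to 1.94 CPM in the low ones, Hba-a1 at 10.7 to 29.3 against 0.166 to 0.809, Hbb-b1 at 16.9 to 47.1 against 0.187 to 1.45 and Hbb-bs at 8.78 to 38.6 against 0.397 to 1.38. These values set the classes, so no test was made of them. The gene copies are near identical, and the sources used here do not say how reads were split among them.

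All 7 libraries carried high levels of alveolar macrophage transcripts. A gene was called where edgeR's quasi-likelihood test, with genotype as a term, gave an adjusted p under 0.05. Of 38 identity genes, 3 were called higher in the high libraries and 1 lower, against 2.46% and 0.277% of all genes tested, and the median difference was 0.15 on the log2 scale, against 0.01 over all genes tested. Chil3, a secreted lectin-like protein and the most abundant transcript of the list, was at 20112, 20270.0 and 16246 CPM in the high libraries (from here on in the order Suz12 cKO replicate 1, Suz12 cKO replicate 2, wild type replicate 2). It was at 17700.0, 18364, 18563 and 15960.0 CPM in the low libraries (in the order Suz12 cKO replicate 3, wild type replicates 1, 3 and 4). The ranges overlapped. Siglecf, a surface lectin often used to recognise these cells, was at 219.6, 234 and 319 CPM against 197, 311, 278 and 241 CPM and Pparg, their lineage regulator, at 200.3, 218 and 255 CPM against 215, 169, 223 and 211 CPM, again with overlap. The 3 called higher were Il1rn, the interleukin-1 receptor antagonist, by 0.76, the scavenger receptor gene Olr1 by 0.51 and the transcription factor gene Bhlhe40 by 1.33 on the log2 scale. Its paralog Bhlhe41 fell by 0.48 on the log2 scale. Its call was lost without any one library other than wild type replicate 3, and 1 gene of the list was called higher without Suz12 cKO replicate 3.

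Several transcripts typical of other lung and blood cells were also higher in the 3 libraries, while most members of their marker lists did not pass the test. Sftpc, the surfactant protein C gene of alveolar type 2 cells, was at 4.49, 9.03 and 10.6 CPM in the high libraries and at 0, 0, 0 and 0.0416 CPM in the low ones, so the ranges did not overlap. Scgb1a1, a secretoglobin of airway club cells, was at 12, 36.8 and 46.9 CPM against 0.474, 1.05, 0.963 and 2.35 CPM, a log2 difference of 5.30 ± 0.49 (SE; adjusted p = 0.000421). Col3a1, a fibrillar collagen of fibroblasts, was at 1.1, 1.32 and 8.18 CPM against 0, 0, 0 and 0.0208 CPM. In both Scgb1a1 and Col3a1 the highest library was wild type replicate 2, whose haemoglobin was lowest of the 3.

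Some genes had no count in any low library. The immunoglobulin light chain gene Igkc was at 4.46, 9.97 and 26.7 CPM in the high libraries, S100a9, a calprotectin subunit of neutrophils, at 3.34, 8.52 and 4.33 CPM and Dcn, a proteoglycan of fibroblasts, at 0.501, 1.26 and 6.37 CPM. Cldn5, a tight junction gene of endothelium, was at 0.611, 0.97 and 2.65 CPM and Cxcl15, a chemokine of lung epithelium, at 1.08, 1.12 and 1.6 CPM. All 5 were listed at 0 in each of the 4 low libraries, and for Igkc, Dcn, Cldn5 and Cxcl15 the highest library was wild type replicate 2. Vwf, the von Willebrand factor gene and a more abundant endothelial marker than Cldn5, had all 3 high libraries below the low ones, at 72.8, 74.9 and 85.8 CPM against 110.5, 105, 98.9 and 103 CPM (log2 difference -0.41 ± 0.10), and did not pass the test (adjusted p = 0.0642). The IgA heavy chain gene Igha was at 7.89, 19.6 and 62.9 CPM against 0, 0.0865, 0.774 and 0.645 CPM, and Jchain, which joins IgA and IgM units, at 0.94, 4.65 and 10.7 CPM against 0, 0.136, 0 and 0.416 CPM. Igkc, Igha and Jchain were highest in wild type replicate 2 and lowest among the high libraries in Suz12 cKO replicate 1. This is the reverse of the order of these libraries in haemoglobin. The IgM heavy chain gene Ighm was instead highest in Suz12 cKO replicate 2. It was at 1.61, 26.3 and 25.3 CPM against 3.07, 0.729, 1.24 and 1.81 CPM, with overlap.

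**Figure D1:**
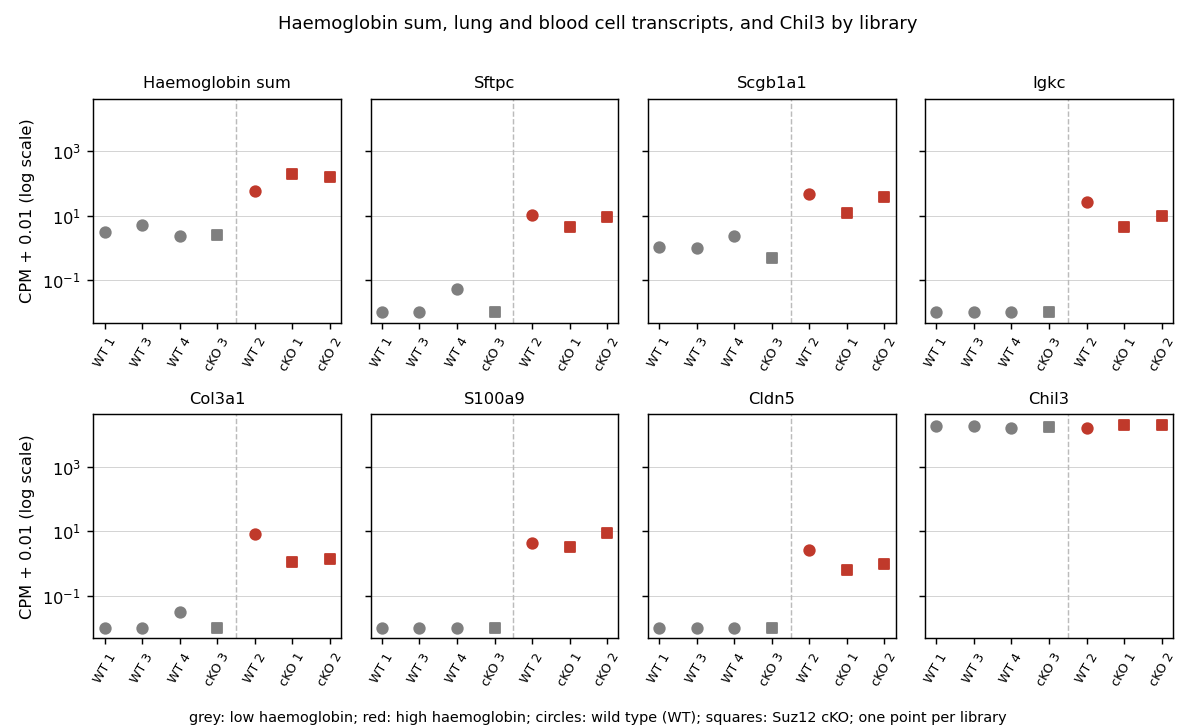
Level of the haemoglobin sum (CPM of raw totals) and of 7 genes (CPM after TMM scaling) in each library, on a log axis after adding 0.01 CPM. Each point is a library, grey for low and red for high haemoglobin, with wild type as circles and Suz12 cKO as squares. Sftpc, Igkc, Col3a1, S100a9 and Cldn5 sit at or near 0 in the 4 low libraries, while Chil3 is near the top of the axis in all 7.

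The marker lists of these cell types held 0 to 3 called members each, where 2.46% of all genes tested were called higher. Members at or near 0 in the low class, such as Sftpc, Cldn5 and Dcn, passed the filter on low counts only through the high libraries, so the counts are a description and support no change of a list. Of the 8 erythroid genes other than haemoglobin that could be tested (17 listed), 0 were called in either direction. The list summed to 85.0 to 90.6 CPM in the high and 75.1 to 87.2 CPM in the low libraries, and Slc4a1, a red cell membrane gene, was at 0 in all 7. Most of this sum was Fech, at 54.9 to 64.8 CPM in the high and 49.5 to 64.9 CPM in the low libraries. The mean log2 CPM of the members (with a prior count) was -1.99 to -1.35 against -2.52 to -2.14, without overlap. Alas2, the erythroid enzyme that starts haem synthesis, was at 3.02, 5.94 and 0.84 CPM against 0, 0.556, 0.258 and 0.271 CPM and did not pass the test (adjusted p = 0.372). Called higher were 2 of 13 tested genes of alveolar type 2 epithelium, 3 of 10 of type 1 epithelium, 1 of 10 of airway epithelium, 2 of 13 of endothelium, 3 of 11 of fibroblasts and mesenchyme, 1 of 7 of B cells, 1 of 10 of neutrophils, 1 of 13 of dendritic cells and 3 of 24 of monocytes and interstitial macrophages. None of the 7 platelet, 10 T and NK cell or 2 mast cell, basophil and eosinophil genes tested was called, and no tested gene of any of these lists was called lower. Beside Sftpc, Cxcl15, Scgb1a1, Cldn5, Col3a1, Dcn, Jchain and S100a9, the genes called were Ager and Pdpn of type 1 epithelium with Vegfa, Esam of endothelium, Cspg4 of mesenchyme, Clec9a of dendritic cells, and Cd14, Itgam and Nr4a1, which alveolar macrophages also express. Without wild type replicate 2, 0 genes were called of type 2 epithelium, endothelium, mesenchyme, B cells, neutrophils and dendritic cells, and 1 of type 1 epithelium. Endothelium also had 0 called without any one of Suz12 cKO replicates 1 and 2 and wild type replicate 3, dendritic cells 0 without any one of these or wild type replicate 1, and B cells 0 without Suz12 cKO replicate 3 or wild type replicate 1. Type 2 epithelium had 1 called without any one of Suz12 cKO replicates 1 and 2 and wild type replicates 3 and 4. Without Suz12 cKO replicate 3, 9 monocyte and interstitial macrophage genes were called. With at least 5 CPM in 3 libraries, 0 were called of type 2 epithelium and endothelium.

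The summed level of a list separated the classes only in type 1 epithelium, at 363 to 469 CPM in the high and 163 to 269 CPM in the low libraries. It was 4898 to 5838 against 5332 to 6741 CPM for type 2 epithelium, 271 to 409 against 282 to 380.0 CPM for airway epithelium, 828 to 957 against 713 to 938 CPM for endothelium and 439 to 459.8 against 374 to 466 CPM for mesenchyme. For blood cells it was 209 to 219.8 against 194 to 213 CPM for B cells, 136 to 269 against 115 to 233 CPM for neutrophils, 12.8 to 22.4 against 5.09 to 28.5 CPM for T and NK cells and 10.6 to 22.8 against 1.91 to 12.9 CPM for platelets. It was 225 to 322 against 199 to 311 CPM for mast cells, basophils and eosinophils, 121 to 311 against 80.5 to 469 CPM for dendritic cells and 6802 to 10552 against 3002 to 7676 CPM for monocytes and interstitial macrophages. A sum mostly follows the most abundant members, such as Lyz1 at 4597 to 5518 against 5099 to 6511 CPM in type 2 epithelium. The mean log2 CPM of members (with a prior count) had all high libraries above all low ones in these lists except dendritic cells. It was 2.39 to 3.02 against 0.134 to 0.524 for type 2 epithelium and 1.18 to 2.39 against -1.14 to 0.147 for endothelium. Members at or near 0 weigh on this mean, and it was not tested. In the type 1 sum Pdpn and Cav1 weighed more than Ager. Vegfa, a member of the same list whose levels are given below, also weighed more than Ager in the high libraries. Pdpn was at 177, 138 and 125 CPM against 111, 46.8, 42.6 and 38.4 CPM. Cav1 was at 117, 114 and 117 CPM against 110, 78.3, 109 and 96 CPM. Ager was at 3.18, 4.67 and 10.8 CPM against 0.641, 1.62, 0.997 and 0.916 CPM. The part of other lung and blood cells in the differences below was not tested. In bulk libraries fewer cells of a type and less RNA per cell cannot be told apart.

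Of the 14432 genes tested with genotype as a term, 355 were called higher (2.46%) and 40 lower (0.277%) in the high libraries, 395 in all (2.74%), at an adjusted p under 0.05. DESeq2 called 734 higher and 246 lower, so that 74.9% of its calls were higher against 89.9% in edgeR. As the classes were selected on measured RNA and not assigned, these counts describe how far 3 libraries stand from the other 4 and test no treatment. The median difference was 1.10 on the log2 scale among genes called higher, and 199 of them differed by at least 2-fold. Among genes called lower the median was -0.68, and 6 of 40 differed by at least 2-fold. All 3 high libraries lay above all 4 low ones in 1221 of 14432 genes (8.46%) and below them in 874 (6.06%). Among the genes called, 331 of 355 and 34 of 40 did not overlap. Wild type replicate 2 was the highest library in 211 of the 355, Suz12 cKO replicate 1 in 84 and Suz12 cKO replicate 2 in 60. The highest library was not counted over all genes tested. The number of genes called rested on wild type replicate 2: without it 112 genes were called higher and 16 lower. It also fell to 228 and 7 without wild type replicate 3, while 276 and 17 were called without Suz12 cKO replicate 1 and 293 and 23 without Suz12 cKO replicate 2. Without wild type replicate 4 it was 254 and 24.

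Of the 10 genes called higher with the largest difference (at least 10 CPM in the high class and no overlap), 3 stand in the cytokine and chemokine list (Cxcl2, Cxcl1 and Il6). The others were Ptgs2, Vegfa, Thbs1, Nr4a2, Igkc, Igha and Scgb1a1. Igkc, with no count in any low library, passed the filter on low counts only through the high libraries. Cxcl2 (Entrez 20310, chromosome 5, 90903899 to 90905938 in GRCm38.p6) was at 921, 962 and 761 CPM in the high and 42.9, 7.63, 8.05 and 7.24 CPM in the low libraries. The means were 881 ± 106 (SD, n = 3) and 16.4 ± 17.6 CPM (SD, n = 4), and the log2 difference was 5.63 ± 0.39 (SE; adjusted p = 0.000115). Suz12 cKO replicate 3 stood between them and the low wild type libraries. Cxcl1, again with Suz12 cKO replicate 3 highest among the low libraries, was at 117, 148 and 88.4 CPM against 4.96, 0.0247, 0.31 and 0.291 CPM (log2 difference 6.42 ± 0.72). Ptgs2, the inducible cyclooxygenase that makes prostaglandin precursors, was at 242, 237 and 84.7 CPM against 4.56, 0.408, 0.327 and 0.0416 CPM (log2 difference 6.77 ± 0.48, adjusted p = 0.000116). Here wild type replicate 2 was well below both Suz12 cKO high libraries, yet above each low one. The cytokine gene Il6 was at 75.8, 54.1 and 31.9 CPM against 1.52, 0.321, 0 and 0.77 CPM, and Vegfa, an angiogenic factor also made by type 1 epithelium, at 112, 77.6 and 57.9 CPM against 4.96, 0.173, 0.378 and 0 CPM. Thbs1, a matrix glycoprotein, was at 67.3, 37 and 32.5 CPM against 6.59, 0.0618, 0.12 and 0.187 CPM.

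The smallest p-values among genes called higher belonged to Gadd45b, Areg and Crem (adjusted p = 4.10e-05 for each). Gadd45b, a stress-induced activator of p38 and JNK signalling, was at 276, 344 and 283 CPM against 37.5, 21.7, 18.5 and 24.2 CPM, a log2 difference of 3.41 ± 0.17. Areg, an EGF receptor ligand, was at 70.7, 82.4 and 45 CPM against 2.49, 2.89, 1.91 and 1.39 CPM, and Crem, a cyclic AMP-responsive regulator, at 41.3, 37.6 and 59.8 CPM against 6.65, 6.89, 8.74 and 6.83 CPM. In none of the 3 genes did the classes overlap. Suz12 cKO replicate 3 was above the low wild type libraries for Gadd45b, within their range for Areg and below it for Crem.

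Of the 4 marker genes Egr1, Tnf, Kdm6b and Sftpc, 3 separated the classes and Egr1 did not. Tnf, the inflammatory cytokine, was at 300.1, 267 and 119.7 CPM against 72.6, 34.6, 41.6 and 52.6 CPM (log2 difference 1.71 ± 0.17, adjusted p = 0.000587). Kdm6b encodes a demethylase that removes the histone mark set by PRC2, and it was at 294, 252 and 321 CPM against 77.4, 44.6, 53.9 and 72.9 CPM (log2 difference 2.18 ± 0.19, adjusted p = 0.000345). Egr1, a zinc finger factor induced early in a response, was at 374, 579.9 and 251 CPM against 289, 37.8, 42.8 and 53.9 CPM. It was called (log2 difference 1.67 ± 0.32, adjusted p = 0.0249), but its level in Suz12 cKO replicate 3 was above that of wild type replicate 2. The difference was 2.48 within wild type and 0.72 within Suz12 cKO.

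Immediate-early transcription factor genes formed the list with the largest share of members called. Of 26 tested, 18 were called higher (against 2.46% of all genes) and 0 lower, 20 had high libraries all above the low ones (8.46% of all genes tested), and the median difference was 1.61 on the log2 scale. Without wild type replicate 2, 11 of 26 were called and the median was 1.12. Fosb, an AP-1 subunit, was at 1036, 1130.5 and 1970.2 CPM against 178, 148, 106 and 147 CPM. Its partners Junb and Jun were at 1736, 2063 and 2562 CPM against 774, 592, 496 and 639 CPM and at 348, 512 and 506 CPM against 243, 171, 195 and 252 CPM, and Fosl2 differed by 1.99 on the log2 scale. The highest library was wild type replicate 2 for Fosb and Junb and Suz12 cKO replicate 2 for Jun. The nuclear orphan receptor gene Nr4a1 was at 1580.2, 1752 and 1511 CPM against 365, 113, 63.1 and 83.8 CPM, Nr4a2 at 384, 325 and 269 CPM against 20.2, 5.16, 1.56 and 3.1 CPM and Nr4a3 at 439, 307 and 228 CPM against 28.8, 1.04, 7.74 and 6.43 CPM. In all 3 NR4A genes Suz12 cKO replicate 3 had the highest level of the low libraries. Egr2, Egr3, Atf3, Maff, Klf4 and Csrnp1 were higher by 1.36, 3.72, 2.30, 2.05, 1.04 and 2.74 on the log2 scale. Klf2, Klf6, Ier3 and Ier5 were higher by 1.54, 0.60, 2.12 and 0.89. Fos itself was abundant everywhere, at 1350.5, 1654 and 2342 CPM against 1205, 688, 784 and 886 CPM, and did not pass the test (adjusted p = 0.051), although the classes did not overlap. Myc, a growth regulator, was at 19.9, 19.7 and 26.7 CPM against 15.7, 28.6, 40.9 and 46.1 CPM with overlap.

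Genes that feed back on MAP kinase signalling or mRNA decay were called in the same direction. Of 25 tested, 13 were called higher (against 2.46% of all genes) and 0 lower, with a median of 1.55. Without wild type replicate 2, 4 of 24 were called and the median was 0.75. Dusp2, a phosphatase that inactivates MAP kinases in the nucleus, was at 41.4, 40.4 and 34.7 CPM against 3.72, 0.803, 0.894 and 0.791 CPM. Dusp1, of the same family, was at 705, 744 and 1008 CPM against 479, 157, 118 and 133 CPM. Zfp36, which destabilises cytokine mRNA, was at 1105, 1374 and 1026 CPM against 779.9, 497, 525 and 693 CPM. Dusp6 was higher by 0.97 on the log2 scale (Dusp16 was also called), the pseudokinase gene Trib1 by 1.68, the polo-like kinase genes Plk2 and Plk3 by 1.73 and 1.62, and Rgs2, which dampens G protein signalling, by 0.59. The classes overlapped for Plk2. Gadd45a and Gadd45g, growth arrest genes related to Gadd45b, were higher by 1.55 and 0.69.

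Cytokine and chemokine genes showed 18 of 31 tested members called higher (against 2.46% of all genes) and 0 lower, with a median of 2.29. Without wild type replicate 2, 14 of 30 were called and the median was 1.65. The interleukin-1 genes Il1b and Il1a were at 986, 911 and 635 CPM against 175, 41.9, 41.1 and 50.8 CPM and at 262, 238 and 199.6 CPM against 78.2, 52, 42.8 and 39.5 CPM. Ccl3, a chemokine for monocytes and T cells, was at 154, 212 and 119 CPM against 56.4, 22.6, 22.6 and 23.3 CPM, and Ccl2, which recruits monocytes, at 43.4, 48.6 and 19 CPM against 14.9, 1.77, 1.86 and 2.06 CPM. Il10, an anti-inflammatory cytokine, was at 17.9, 8.31 and 2.29 CPM against 0.223, 0, 0 and 0 CPM, so an inhibitory gene moved with the inflammatory ones. Il23a, a subunit of interleukin 23, was at 13.1, 6.94 and 6.41 CPM against 0.153, 0, 0 and 0 CPM. Members at or near 0 in the low class, such as Il10 and Il23a, passed the filter on low counts only through the high libraries. Their calls are a description. Cxcl10, an interferon-inducible chemokine, was at 69.3, 42.8 and 15.7 CPM against 2.44, 2.57, 4.52 and 2.83 CPM. Also called were the interleukin-6 family genes Osm and Lif (log2 differences 1.86 and 2.29), the chemokine genes Ccl4, Ccl7 and Cxcl3 (3.08, 4.36 and 2.84) and the EGF receptor ligand gene Ereg (3.88).

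Within the NF-kappa-B pathway most genes called were inhibitors and targets, and Rel was the subunit gene called. Of 30 genes, 11 were called higher (against 2.46% of all genes) and 0 lower, with a median of 0.29. Without wild type replicate 2, 8 of 30 were called and the median was 0.24. Nfkbia, the inhibitor that NF-kappa-B itself induces, was at 396, 359 and 349.7 CPM against 126, 51.7, 56.7 and 55.9 CPM. Tnfaip3, the ubiquitin-editing enzyme A20 that shuts the pathway down, was at 565, 416 and 655 CPM against 80.1, 54.4, 68.1 and 69.9 CPM (log2 difference 3.01 ± 0.18, adjusted p = 5.08e-05). Nfkbiz and Nfkbid, nuclear members of the same inhibitor family, differed by 3.73 and 2.46, Nfkbie by 1.08, the RNase gene Zc3h12a by 1.76, the adaptor kinase gene Ripk2 by 1.40, Tnfaip2 by 0.50 and the activation marker gene Cd83 by 2.37. The subunit gene Rel was at 105, 89 and 117 CPM against 34.3, 23.1, 29.9 and 27.9 CPM, whereas Nfkb1 was at 161, 139 and 165 CPM against 161, 143, 169.6 and 168 CPM and Rela at 96.3, 96.6 and 82.5 CPM against 73.4, 72.1, 78.8 and 89.2 CPM (adjusted p = 0.945 and 0.444). Cd14, the co-receptor for bacterial lipopolysaccharide, was at 804, 849 and 1033 CPM against 259, 151, 133 and 132 CPM. For Nfkbia, Tnfaip3, Rel and Cd14 the classes did not overlap, and for Tnfaip2 they did.

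**Figure D2:**
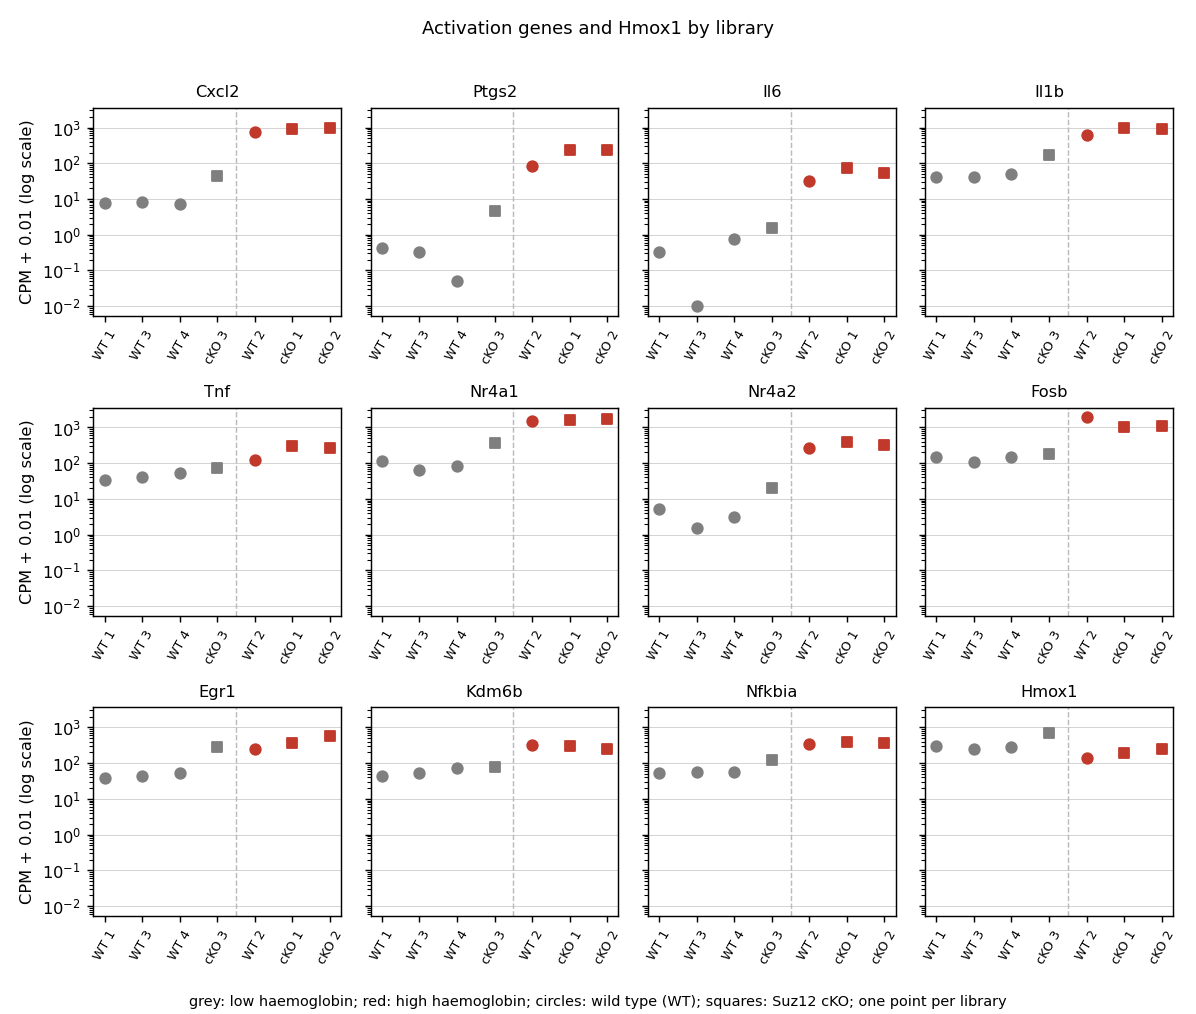
Level of 12 genes in each library (CPM after TMM scaling, plus 0.01, on a log axis shared by the panels), with 1 point per library, grey for low and red for high haemoglobin, circles for wild type and squares for Suz12 cKO. Cxcl2 lies at 7.24 to 42.9 CPM in the low and 761 to 962 CPM in the high libraries, Egr1 overlaps, and Hmox1 is highest in Suz12 cKO replicate 3.

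Lists of stress, metabolism and hormone response ranged from no member called to most, where 2.46% of all genes tested were called higher and 0.277% lower. No heat shock gene of 21 tested was called. Hspa1b, an inducible chaperone gene whose near-identical copy is Hspa1a, was at 43.4, 35.4 and 25.2 CPM in the high libraries and 139, 6.07, 25.7 and 19.7 CPM in the low ones, with Suz12 cKO replicate 3 above all others. Of 20 genes of the integrated and endoplasmic reticulum stress responses, 3 were higher: the transcription factor gene Atf4 by 0.95, the phosphatase subunit gene Ppp1r15a by 1.59 and the amino acid transporter gene Slc3a2 by 0.97. All 3 calls were lost without wild type replicate 2. Of 13 glucocorticoid response genes 8 were called higher, with a median of 1.16. Without wild type replicate 2, 2 were higher and 1 lower with a median of 0.60, and without wild type replicate 3 or 4, 5 and 4 were higher. Of the 8, Per1, Dusp1, Sgk1 and Nfkbia also stand in other lists here. Per1, a clock gene, was at 148, 173 and 309.5 CPM against 55.5, 49, 47 and 63.5 CPM, and the other 4 were the transcription factor genes Klf9 (0.97) and Zbtb16 (2.11), the cell cycle inhibitor gene Cdkn1a (1.16) and the EGF receptor inhibitor gene Errfi1 (1.40). For Zbtb16 the classes overlapped. The kinase gene Sgk1 was higher by 0.52. Tsc22d3, a glucocorticoid-induced gene, was not called, with a log2 difference of -0.24. It was at 47.8, 36.2 and 99.6 CPM against 107, 62.9, 61.8 and 60 CPM. Its difference was 0.69 within wild type and -1.35 within Suz12 cKO. In the circadian list of 18, Nfil3 joined Per1 and Bhlhe40 with a difference of 2.07, and Bhlhe41 was lower.

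Histone H3K27 genes showed 2 of 10 called higher (against 2.46% of all genes), and without any one of the 7 libraries only Kdm6b was. Kdm6a, the X-linked relative of Kdm6b, was at 46.3, 47 and 58.5 CPM against 33, 37.6, 42.7 and 31.8 CPM (log2 difference 0.58 ± 0.13, adjusted p = 0.0461). Its Y-linked copy Uty and the methyltransferase gene Ezh2 did not pass the test. None of 30 cell cycle, 22 hypoxia and glycolysis, 10 MHC class II, 32 cytosolic ribosomal and 25 oxidative phosphorylation genes was called. Of 31 interferon-stimulated genes only Cxcl10 was called, and the list median was -0.49. Of 14 eicosanoid genes only Ptgs2 was called.

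The haem-degrading enzyme gene was called lower in the high haemoglobin class. Among the high libraries it was lowest in wild type replicate 2, whose haemoglobin sum was also the lowest of them. Hmox1, haem oxygenase 1, which breaks down haem, had the smallest p among genes called lower: it was at 194, 256 and 135 CPM in the high and 686, 310.3, 244 and 285 CPM in the low libraries (log2 difference -1.31 ± 0.16, adjusted p = 0.00191). The classes overlapped, since Suz12 cKO replicate 2 exceeded wild type replicate 3, but within each genotype every high library was below every low one. The difference was -1.05 within wild type and -1.61 within Suz12 cKO. In contrast Nfe2l2, the gene for NRF2 and an activator of Hmox1, was at 331, 273 and 417 CPM against 177, 199, 224 and 216 CPM (log2 difference 0.88 ± 0.10), and Prdx1, a peroxide reductase, at 341, 428 and 504 CPM against 606, 736, 671 and 645 CPM. Of 17 NRF2 genes 1 was called higher and 2 lower, against 2.46% and 0.277% of all genes tested. Of 19 haem and iron genes 1 was higher and 1 lower, again Nfe2l2 and Hmox1. The call of Nfe2l2 was lost without wild type replicate 2. That of Prdx1 was lost without any one of Suz12 cKO replicate 3 and wild type replicates 1, 2, 3 and 4. In the haem and iron list 2 genes were lower without any one of Suz12 cKO replicates 2 and 3 and wild type replicates 1 and 4. The ferritin genes Fth1 and Ftl1, which store iron, were each lower in the 3 high libraries than in all 4 low ones but did not pass the test (adjusted p = 0.211 and 0.0934).

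Of the genes called lower, 6 of 40 differed by at least 2-fold. Rab32, a small GTPase of lysosome-related organelles, was at 189, 181 and 182 CPM against 270.2, 262, 315 and 286 CPM (log2 difference -0.61 ± 0.10, adjusted p = 0.0102). Oxsm, a mitochondrial fatty acid synthase, was at 19.2, 17.4 and 16.4 CPM against 30.4, 30.1, 28 and 27.1 CPM. The mitochondrial ribosomal RNA gene mt-Rnr2 was at 257, 276 and 339 CPM against 706, 443, 784 and 909 CPM, a log2 difference of -1.23 ± 0.23. The other mitochondrial ribosomal RNA gene, mt-Rnr1, did not follow it, with means of 140.4 ± 81.1 CPM (SD, n = 3) in the high and 159 ± 52.1 CPM (SD, n = 4) in the low libraries and a log2 difference of 0.10 ± 0.20. Oxsm and mt-Rnr2 were among the 10 with the largest difference at 10 CPM or more and no overlap. The others were Zfp658 (-1.72), Zfp322a (-0.98), Pigc (-0.96), Rdm1 (-0.93), Ttc33 (-0.84), H2-T24 (-0.80), Rps12-ps11 (-0.79) and Fam241a (-0.78). Zfp658 and Zfp322a encode zinc finger proteins, and Pigc an enzyme of GPI anchor synthesis.

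**Figure D3:**
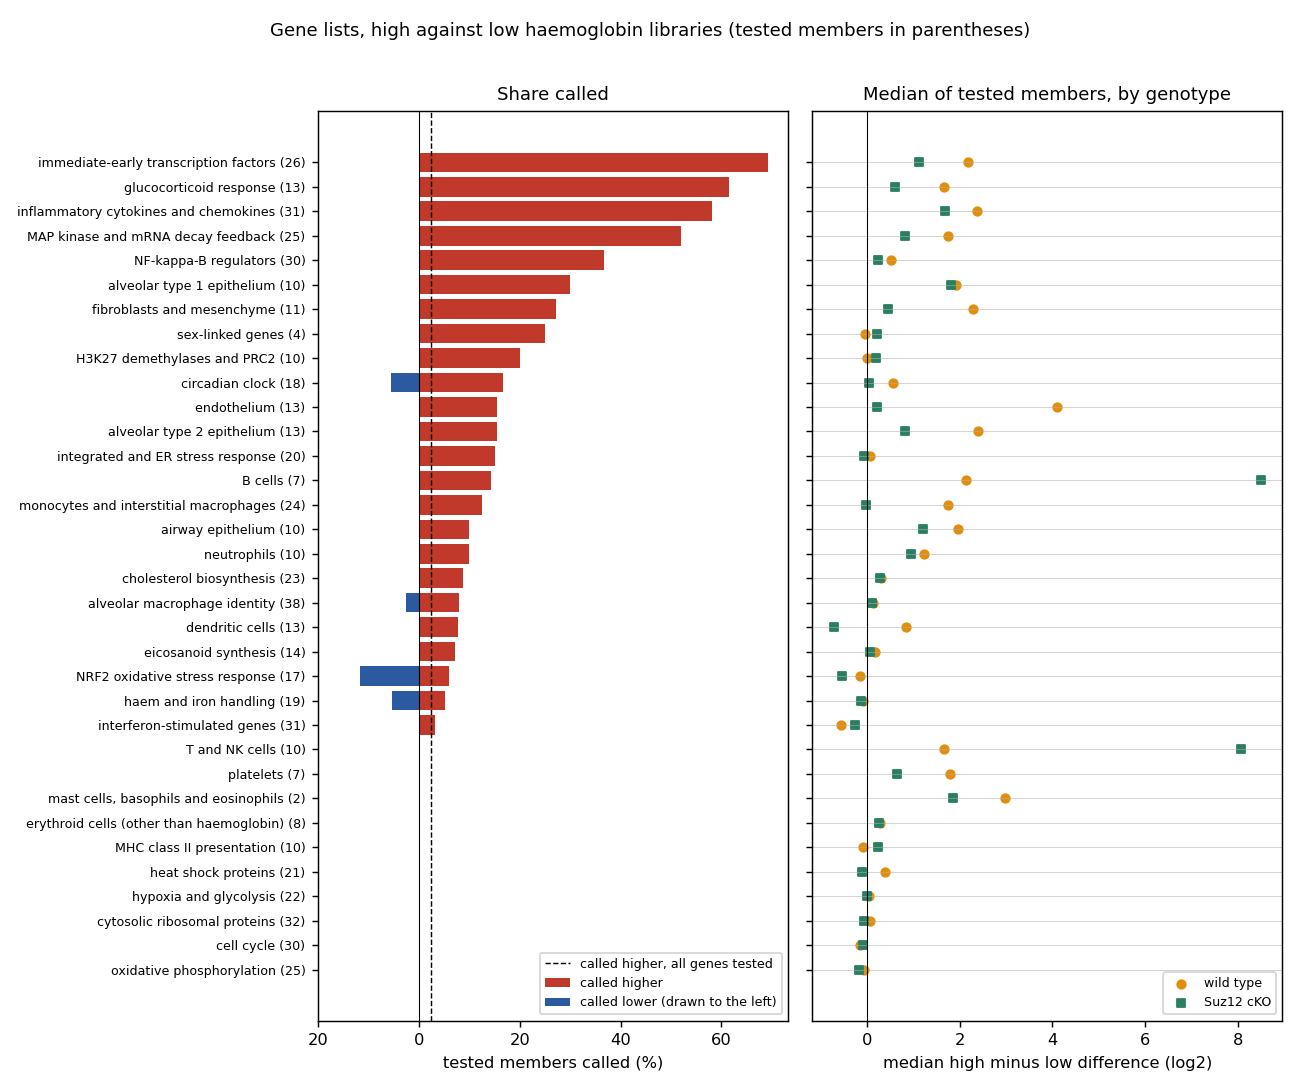
Left, the share of tested members of each of 34 gene lists called higher (red) or lower (blue, to the left), beside the share called higher among all genes tested (dashed, 2.46%). Right, the median high minus low difference of each list within wild type (circles) and Suz12 cKO (squares). Immediate-early genes lead with 18 of 26, and medians of lists with many members at 0 in Suz12 cKO replicate 3, such as T and NK cells, depend on the prior count.

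The contrast was also taken apart by genotype, into a pair of contrasts that share no library. Within wild type, replicate 2 against replicates 1, 3 and 4, 401 genes were higher (2.78%) and 57 lower (0.395%). Within Suz12 cKO, replicates 1 and 2 against replicate 3, 113 were higher (0.783%) and 15 lower (0.104%). Each contrast has a lone library, which was assumed to vary like the others. Without wild type replicate 1, 3 or 4, the wild type counts were 646 and 157, 268 and 15, and 353 and 32. Without Suz12 cKO replicate 1 or 2, the Suz12 cKO counts were 50 and 4, and 53 and 9. Over the 8878 genes with a mean of at least 10 CPM, the log2 differences of both contrasts correlated across genes with Pearson's r = 0.573 and Spearman's rho = 0.322, and over all 14432 with 0.138 and 0.193. These are correlations across genes, which are not independent replicates, and low counts enter the second pair. The log2 difference was larger within wild type in 283 of the 355 genes called higher, and Suz12 cKO replicate 3 stood above each low wild type library in 177 of them and below each in 84. The same counts were not taken over all genes tested, so they describe the called genes and set them apart from no others. For Nr4a1 the differences were 4.13 and 2.19, for Il1b 3.83 and 2.44, and for Kdm6b 2.49 and 1.82, in wild type and Suz12 cKO. Tnf, at 1.48 and 1.97, and Areg, at 4.42 and 4.94, had the larger value in Suz12 cKO.

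**Figure D4:**
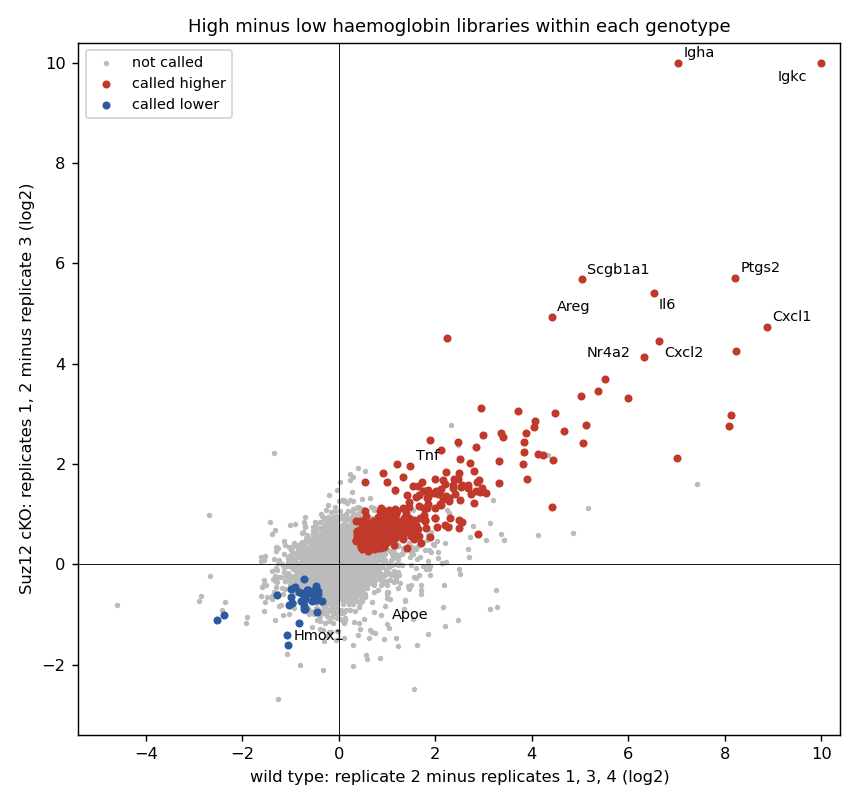
Log2 difference of high minus low libraries within wild type (horizontal) and within Suz12 cKO (vertical), for 9145 genes with a mean of at least 10 CPM in either class, with called genes in red (higher) and blue (lower). Igha and Igkc lie beyond the drawn limit of 10 and are set at it. Called genes lie in the upper right and lower left, with Ptgs2, Cxcl1 and Il6 far from 0 on both axes and Apoe of opposite sign.

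Tested directly, the difference between the contrasts passed the threshold in 12 of 14432 genes (0.0831%). For Cxcl2 it was -2.18 on the log2 scale (Suz12 cKO minus wild type, adjusted p = 0.00386), with 6.64 within wild type and 4.46 within Suz12 cKO, and for Dusp1 -2.29 (adjusted p = 0.0121), with 2.89 and 0.60. Both were higher in the high libraries of each genotype, and their low level was higher in Suz12 cKO replicate 3 than in the low wild type libraries. A second set had opposite signs. Apoe, a lipid carrier, was at 494, 512 and 436 CPM in the high libraries and 1155, 222, 209 and 226 CPM in the low ones, a difference of 0.99 within wild type and -1.20 within Suz12 cKO. C1qb, a complement subunit, was at 19, 29.1 and 39.6 CPM against 51.7, 6.72, 7.89 and 6.93 CPM, and Mmp12, the macrophage elastase, at 162, 199.8 and 270.2 CPM against 384, 108, 89.4 and 81.4 CPM. In Apoe, C1qb, Mmp12 and the adhesion receptor gene Adgre5 (64.9, 72.3 and 69.7 CPM against 114, 26.5, 28.6 and 25.6 CPM), Suz12 cKO replicate 3 was the highest of all 7 libraries, and wild type replicate 2 was above the other wild type libraries.

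**Figure D5:**
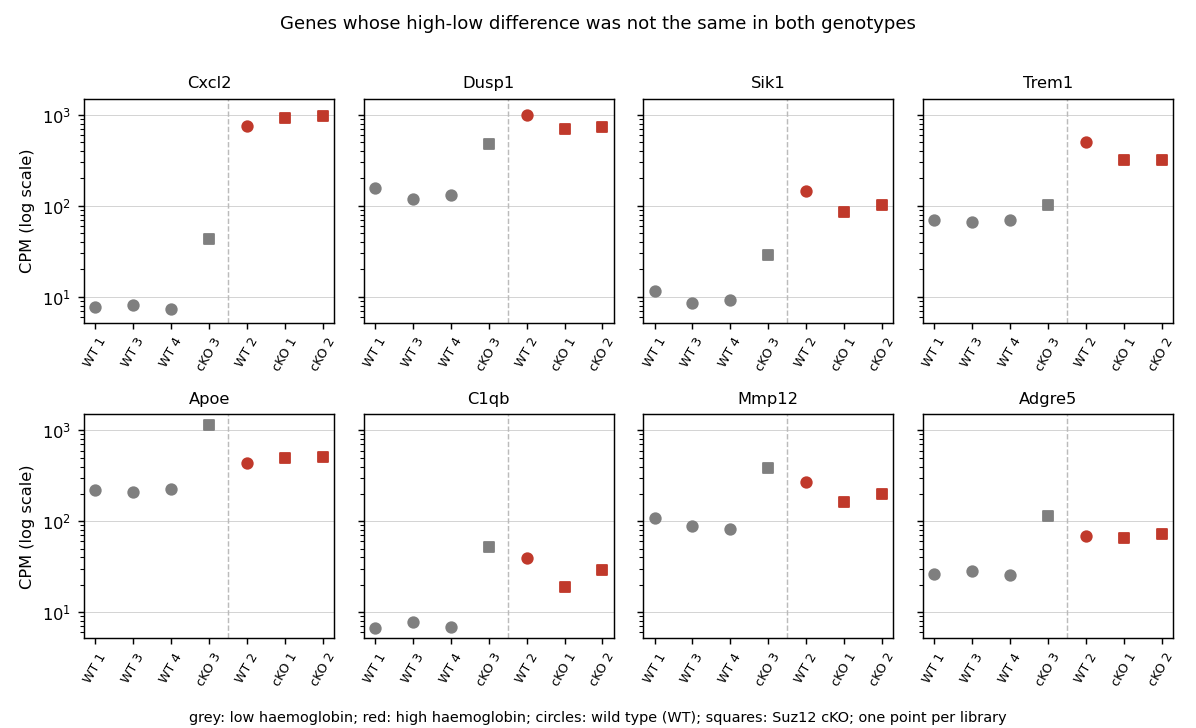
Level of 8 of the 12 genes whose high-low difference differed between genotypes (CPM after TMM scaling, log axis), 1 point per library, grey for low and red for high haemoglobin, circles for wild type and squares for Suz12 cKO. In the upper row Suz12 cKO replicate 3 lies between the low wild type and the high libraries, and in the lower row it is the highest of the 7.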

How the data were processed

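The authors deposited read counts per gene as whole numbers, made with featureCounts on mm10, per the submitters' processing notes. The sources used here do not give the aligner, annotation or strand setting, so overlapping genes are uncertain. Per the labels, polyadenylated RNA went into TruSeq libraries, read as single-end 85 bp reads on a NextSeq 500 with a stated 14 to 20 M (1e6) reads. Symbols came from RefSeq by Entrez number (25275 of 27179 genes, all but 0.829% of counts). The deposited gene length served only to sort genes by length.

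Genes were filtered with filterByExpr (minimum count 10, total 15), scaled by TMM and tested with edgeR 4.0.16 (quasi-likelihood, R 4.3.3), with terms for genotype and haemoglobin class. Haemoglobin genes stayed in the library sizes and out of the test. Genes were called at a Benjamini-Hochberg adjusted p under 0.05. Within-genotype contrasts and their difference came from a model of 4 means. The SE is the log2 difference divided by the root of F. Values are CPM after TMM, and SD is over libraries. P-values measure the spread between these libraries only. DESeq2 1.42.0, other scalings, filters and terms, and left-out libraries were alternatives. The fit was tested on simulated data.

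The members and gene lists were chosen with earlier results of these data known. Named are Suz12, the 4 markers and the haemoglobin genes, per direction the 10 called genes with the largest difference (at least 10 CPM in the higher class, no overlap, no predicted symbols) and the 3 smallest p-values, and of each list the called members, else the 4 smallest p-values, and the 4 highest levels. Outside this rule, and chosen after their values were seen, are Slc4a1, Pparg, Myc, Nfkb1, Rela, Ezh2, Hspa1b, mt-Rnr1 and Ighm. So are, from the test of the difference between contrasts, Adgre5, C1qb, Mmp12, Nek2, Sik1, Trem1 and Tsc22d3.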

Additional observations from a re-analysis of the deposited data

Results flagged for a closer look

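Wild type replicate 2 stood apart from the other 3 wild type libraries. Its gap to the nearest of them, divided by the range of the 4, was 0.924 for Egr1, 0.898 for Kdm6b and 0.996 for Sftpc, each above Dixon's 95% critical value for a group of 4. Chance marks about 1 in 20 groups in this way. Of the 114 genes checked, 82 had a lone wild type library, which was replicate 2 in all 82, while 10.2% of all genes tested had one. The mean level of 13 of 34 gene lists had a lone wild type library, among them the immediate-early, feedback, cytokine and epithelial lists. These genes were named because they differed between the classes, in which replicate 2 is the sole wild type library of the high class.

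The difference between the Suz12 cKO and wild type contrasts passed edgeR's test in 12 genes. On the log2 scale it was -2.18 for Cxcl2, -2.19 for Apoe, -3.57 for C1qb, -2.29 for Dusp1, -2.10 for Adgre5, -2.62 for Mmp12 and -4.04 for Il7r. It was -5.15 for Thbs1, -2.05 for the glucocorticoid-induced gene Tsc22d3, -2.21 for the kinase gene Sik1 and -1.23 for the receptor gene Trem1. For Nek2, a mitotic kinase, it was 10.76, a value that depends on the prior count since Suz12 cKO replicate 3 had no count. The Suz12 cKO contrast has replicate 3 as its lone low library.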

How the results depend on the processing

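Over 2033 values of the 114 genes checked under the alternatives, 0 changed sign and 612 were no longer past the threshold. These 114 were named because they differed between the classes and are not all genes named here. Outside them, Apoe had a log2 difference of -0.01 in the main fit and 0.99 within wild type. C1qb, Mmp12 and Adgre5 were at 0.86, 0.35 and 0.41 in the main fit and at -1.10, -1.08 and -0.73 within Suz12 cKO. DESeq2 called 734 genes higher and 246 lower, against 355 and 40. The genes called lower numbered 60 with upper quartile scaling, and 81 with no filter on low counts. At least 5 CPM in 3 libraries gave 69 lower. Without a genotype term 184 were higher and 11 lower, and with the log2 haemoglobin sum as a number 179 and 10. With a threshold of 100 CPM, which moves wild type replicate 2 to the low class, edgeR called 0 higher and 0 lower (1153 genes at an unadjusted p under 0.05). Leaving out each library in turn gave 112 to 386 higher and 7 to 50 lower. Within wild type this gave 268 to 646 higher and 15 to 157 lower against 401 and 57, and 86 lower with at least 5 CPM in 3 libraries. Within Suz12 cKO it gave 50 to 53 higher and 4 to 9 lower against 113 and 15, and 26 lower with that filter. The within-genotype contrasts themselves called 401 and 57, and 113 and 15. The replicate block left 0 higher and 3 lower (852 at an unadjusted p under 0.05). The sources used here do not say whether same-numbered libraries are paired. Their deviations correlated at -0.04 for replicate 1, whose libraries differ in haemoglobin class. They correlated at 0.24 and 0.16 for replicates 2 and 3, whose libraries share a class, so these values cannot tell pairing from class. Suz12 cKO replicates 2 and 3 correlated best with the wild type library of their own number, and Suz12 cKO replicate 1 did not. The block left 1 residual degree of freedom. The cause of the other changes was not tested. Scaling moved the median of all genes by less than 0.1 on the log2 scale. Depth limits genes near the detection limit, where genes with 16 to 31 counts outnumbered those with 4 to 7, while 319 of the 355 genes called higher had a mean of at least 10 CPM.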

Other observations

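The median difference rose with the deposited gene length. Among the 8878 genes with a mean of at least 10 CPM, the median high minus low difference was -0.07, -0.02, 0.01 and 0.06 on the log2 scale from the shortest to the longest of 4 groups of like size by length. In these groups 50, 71, 92 and 94 genes were called higher and 15, 8, 7 and 7 lower. The order was the same within both genotypes. The part of RNA length in the counts called was not tested.

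Of the calprotectin subunits, S100a9 had no count in any low library, whereas S100a8 was at 46.3, 76.2 and 17.4 CPM in the high libraries (Suz12 cKO replicates 1 and 2, wild type replicate 2) and 50.4, 20.2, 13.8 and 8.41 CPM in the low ones (Suz12 cKO replicate 3, wild type replicates 1, 3 and 4). Csf3r, another gene of neutrophils, was at 58.1, 74.6 and 32.3 CPM against 53.2, 41.2, 46.9 and 44.6 CPM.

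2 genes of migratory dendritic cells were highest in Suz12 cKO replicate 3, a low library: Ccr7, their homing receptor gene, was at 16.6, 32.4 and 37.2 CPM against 89.5, 5.56, 28 and 28.5 CPM and Fscn1, an actin bundling gene, at 14.2, 32.9 and 27.3 CPM against 102, 10.9, 40.9 and 51 CPM. Of the Y-linked genes, Ddx3y was at 143, 127 and 145 CPM against 106, 107, 107 and 101 CPM (edgeR log2 difference 0.41, adjusted p = 0.0457), while Eif2s3y, Kdm5d and Uty did not pass the test. The call of Ddx3y was lost without any one of the 7 libraries.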
